A study of Mus musculus with 8 samples.

Results

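The genes described here are 9 members of the JAK-STAT pathway: the transcription factor genes Stat2, Stat3, Stat5a, Stat5b and Stat6 and the Janus kinase genes Jak1, Jak2, Jak3 and Tyk2. They were taken by gene symbol from a table of 41444 genes, and all 9 were present. The choice was made with earlier results of these data known. The samples were macrophages of wild-type C57BL/6 mice, obtained by culture of bone marrow in 100 ng/mL of the growth factor M-CSF. Cells received vehicle (4 libraries) or 6 nM SLIT2 for 16 hours (4 libraries). SLIT2 is a secreted ligand of the ROBO receptors known from axon guidance, and the comparison asks how it changes transcription in macrophages. The labels do not say whether the 4 replicates of a group came from separate animals or cultures, so p-values measure the spread between these libraries, which may be technical.

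Janus kinases are bound to the inner tails of cytokine receptors that have no kinase of their own. When a cytokine brings receptor chains together, the kinases phosphorylate one another, the receptor tails and the STAT proteins docked there, and the STATs then pair, enter the nucleus and bind DNA. In macrophages STAT3 carries the signal of interleukin-10 and the interleukin-6 family, STAT6 that of interleukin-4 and interleukin-13, STAT5 that of GM-CSF, and STAT2 works with IRF9 in the factor ISGF3 downstream of type I interferon. The data are transcript levels, and phosphorylation was not measured.

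Values were regularized-log (rlog) values, a log2 scale corrected for library size, so a difference of 1 is a doubling. Read counts are not part of the data used here, so the depth per library and its counting error are unknown. Of the 41444 genes, 11851 were tested, those whose rlog averaged 4 or more, and the 9 members were among them. Macrophage identity was checked with 10 markers, all of which were tested, with a summed level (added on the linear scale, then log2) of 19.08 to 19.57 in vehicle and 19.04 to 19.56 in SLIT2 libraries. Replicates 1 and 2 lay apart from 3 and 4 in both groups. Xist, which is transcribed from the inactive X chromosome, was at 7.47 to 7.65 in replicates 1 and 2 and at 12.69 to 12.79 in 3 and 4, and the Y-linked Ddx3y was at 10.75 to 10.83 and 5.90 to 6.45. These are called replicate sets below. In bulk RNA, fewer cells of a type and less RNA per cell cannot be told apart.

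With SLIT2, 4 of the 9 genes rose, Jak3, Stat3, Jak2 and Stat5a, and 0 fell (limma with Benjamini-Hochberg adjustment over all genes tested, threshold 0.05). The share called over all genes was 13.3% in both directions, 6.76% for higher and 6.58% for lower genes. The rises ranged from 1.28 for Jak3 to 0.24 for Stat5a on the log2 scale. Vehicle and SLIT2 libraries did not overlap for the same 4 genes, against 20.5% of all genes in both directions and 10.6% of all genes among the higher ones. Differences were positive for 8 of the 9, as for 50.9% of all genes, and the median over all genes was 0.003.

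**Figure D1:**
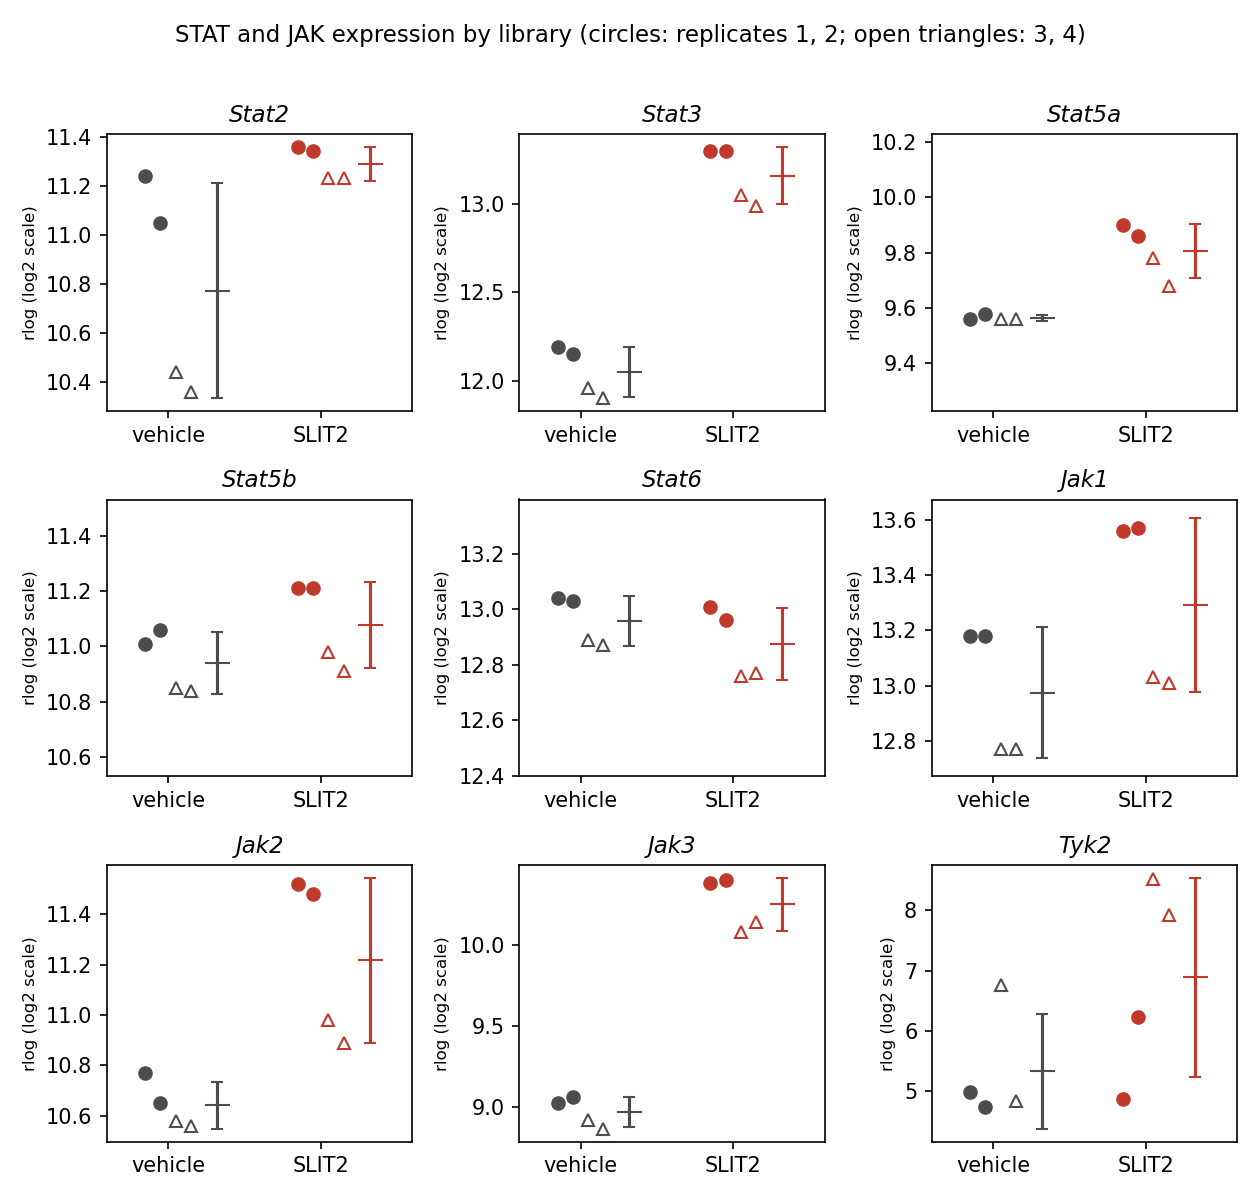
Expression of each gene by library, as rlog on a log2 scale, with vehicle in grey and SLIT2 in red. Filled circles are replicates 1 and 2, open triangles replicates 3 and 4, and bars the mean and SD of 4 libraries. The groups are separate for Stat3, Stat5a, Jak2 and Jak3 and overlap for the other genes.

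Among the STATs, Stat3 had the largest difference. Stat3 (ENSMUSG00000004040, chromosome 11, 100885098 to 100939540 in GRCm38, minus strand) was at 12.19, 12.15, 11.96 and 11.90 in vehicle replicates 1 to 4. It was at 13.30, 13.30, 13.05 and 12.99 in the SLIT2 replicates. Every SLIT2 library lay above every vehicle library, with a gap of 0.80 between the groups, while replicates 3 and 4 were the lower ones in each group. Stat3 rose from 12.05 ± 0.142 to 13.16 ± 0.164 (SD, n = 4), by 1.11 (SE 0.0974, limma adjusted p = 0.000286), a 2.16-fold change. Taken by set, Stat3 rose by 1.13 (replicates 1 and 2) and by 1.09 (replicates 3 and 4). It passed the test in all 21 alternative settings, leaving out each library included.

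Stat5a and Stat5b encode near-identical STAT5 proteins, and the 2 genes lie side by side beyond the 3′ end of Stat3. Stat5a (ENSMUSG00000004043, chromosome 11, 100859351 to 100885169, plus strand) was at 9.56, 9.58, 9.56 and 9.56 in vehicle and at 9.90, 9.86, 9.78 and 9.68 in SLIT2. The vehicle libraries were within 0.02 of each other and all SLIT2 libraries were higher. Stat5a rose by 0.24 (SE 0.0567, limma adjusted p = 0.028), a 1.18-fold change. This call was lost without any single library other than SLIT2 replicate 4 (adjusted p from 0.0588 to 0.0811) and with each duplicate pair averaged to 1 sample (adjusted p = 0.122). Stat5b (ENSMUSG00000020919, chromosome 11, 100780731 to 100850724, minus strand) was at 11.01, 11.06, 10.85 and 10.84 in vehicle and at 11.21, 11.21, 10.98 and 10.91 in SLIT2. Its groups overlapped, since SLIT2 replicates 3 and 4 lay below vehicle replicates 1 and 2. The difference was 0.14 (95% CI -0.07 to 0.34, limma adjusted p = 0.385), and 0.0197 with replicate number as a block. Reads of the 2 paralogs may be split between them by the authors' counting, so the separate values are uncertain.

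Stat5a and Stat3 converge and share 72 exonic bases on opposite strands. Whether the authors counted by strand is not stated in the labels, and reads from the shared bases cannot then be told apart. Stat5b, Stat5a and Stat3 lie within 158.8 kb. Of 15 other tested genes within 200 kb of them, 2 rose and 0 fell, where 13.3% of all genes were called in either direction. Their differences ran from -0.44 to 0.28, all below the difference of Stat3.

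Stat6 and Stat2 did not pass the test. Stat6 (ENSMUSG00000002147, chromosome 10, 127642986 to 127660957, plus strand) was at 13.04, 13.03, 12.89 and 12.87 in vehicle and at 13.01, 12.96, 12.76 and 12.77 in SLIT2. Each SLIT2 library was below the vehicle library of the same number, but the groups overlapped. The difference was -0.08 (95% CI -0.25 to 0.09, limma adjusted p = 0.554), and the adjusted p with the replicate block was 0.0618. Stat6 was called lower with the replicate set as a block (limma adjusted p = 0.0251) and in replicates 3 and 4 alone (0.0402). It shares 40 exonic bases on the opposite strand with Nab2, which was at 11.01 to 11.18 in vehicle and 10.58 to 10.83 in SLIT2. The part of shared reads in the values of Stat6 was not tested. Stat6 was the single member with a negative difference. Stat2 (ENSMUSG00000040033, chromosome 10, 128270559 to 128292849, plus strand) was at 11.24, 11.05, 10.44 and 10.36 in vehicle and at 11.36, 11.34, 11.23 and 11.23 in SLIT2. The vehicle libraries spread over 0.88 and the SLIT2 libraries over 0.13, and vehicle replicate 1 lay 0.01 above the lowest SLIT2 libraries. The difference was 0.52 (95% CI 0.08 to 0.96, limma adjusted p = 0.129). Stat2 passed with the replicate block (adjusted p = 0.0266) and without vehicle replicate 1 (difference 0.67, adjusted p = 0.0434).

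Among the kinases, Jak3 had the largest called difference of any member. Jak3, which pairs with the common gamma chain of the interleukin-4 and interleukin-21 receptors, is ENSMUSG00000031805 (chromosome 8, 71676296 to 71690575, plus strand). It was at 9.02, 9.06, 8.92 and 8.86 in vehicle and at 10.38, 10.40, 10.08 and 10.14 in SLIT2. The groups were 1.02 apart, and within each group replicates 3 and 4 were lower. Jak3 rose from 8.96 ± 0.0915 to 10.25 ± 0.164 (SD, n = 4), by 1.28 (SE 0.089, limma adjusted p = 1.00e-04), a 2.44-fold change. It was number 46 of 11851 genes by p and passed in all 21 alternative settings. Jak3 shares 404 exonic bases on its strand with Insl3, which was at 3.94 to 4.26 in vehicle and 4.25 to 5.02 in SLIT2.

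Jak2, the kinase of the GM-CSF and interferon-gamma receptors among others, rose less and unequally. Jak2 (ENSMUSG00000024789, chromosome 19, 29251828 to 29313080, plus strand) was at 10.77, 10.65, 10.58 and 10.56 in vehicle and at 11.52, 11.48, 10.98 and 10.89 in SLIT2. All SLIT2 libraries were above all vehicle libraries, with SLIT2 replicates 1 and 2 well above 3 and 4. Jak2 rose by 0.58 (SE 0.15, limma adjusted p = 0.039), a 1.49-fold change. The call was lost without vehicle replicate 1, 2, 3 or 4 or SLIT2 replicate 1 or 2 (adjusted p from 0.0646 to 0.0975) and with averaged duplicates (adjusted p = 0.101). It held without SLIT2 replicate 3 or 4.

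Jak1 and Tyk2, both used by type I interferon and interleukin-10 receptors, did not pass the test over all libraries. Jak1 (ENSMUSG00000028530, chromosome 4, 101152367 to 101265282, minus strand) was at 13.18, 13.18, 12.77 and 12.77 in vehicle and at 13.56, 13.57, 13.03 and 13.01 in SLIT2. Each SLIT2 library exceeded the vehicle library of its number, while the groups overlapped because the replicate sets differed more than the treatments. The difference was 0.32 (95% CI -0.07 to 0.71, limma adjusted p = 0.292), and it passed with the replicate block (adjusted p = 0.00128). Tyk2 (ENSMUSG00000032175, chromosome 9, 21104068 to 21131243, minus strand) was at 4.98, 4.73, 6.76 and 4.83 in vehicle and at 4.87, 6.23, 8.52 and 7.93 in SLIT2. Vehicle replicate 3 stood above the other vehicle libraries, and SLIT2 replicate 1 lay within the vehicle range. The difference of 1.56 had a 95% CI of -0.32 to 3.45 (limma adjusted p = 0.280; 0.044 with the block). An antisense gene that shares 554 exonic bases with Tyk2 was at 0.67 to 0.78 in every library.

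**Figure D2:**
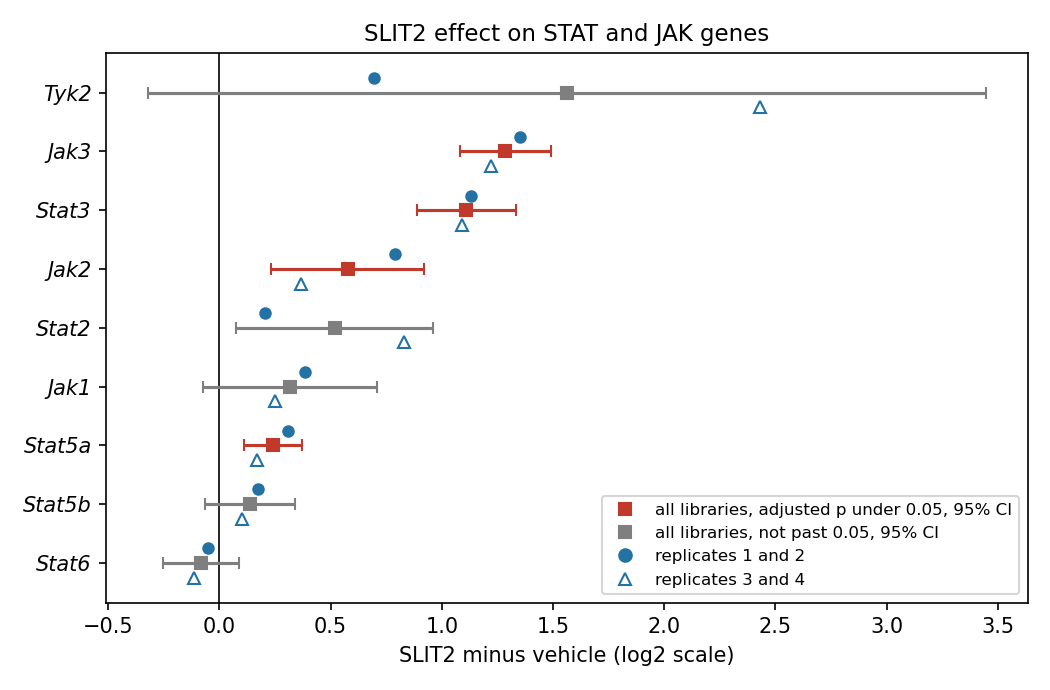
SLIT2 minus vehicle for each gene on the log2 scale, with squares for all libraries and bars for the 95% CI, red where the adjusted p was under 0.05. Blue circles are replicates 1 and 2 alone and open triangles replicates 3 and 4 alone. Stat3 and Jak3 lie at 1.11 and 1.28 with close values in both sets, and the interval of Tyk2 runs from -0.32 to 3.45.

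Levels differed between the replicate sets for most members. In replicates 3 and 4, 7 of the 9 genes were lower than in replicates 1 and 2 and Tyk2 was higher (limma with treatment and set, adjusted p under 0.05), where 57.0% of all genes differed between the sets and 31.2% were lower in 3 and 4. Stat5a did not pass, with a difference of -0.08 (adjusted p = 0.135). The set took 80.3% of the sum of squares of Stat6, 70.0% of Stat5b and 68.4% of Jak1. Treatment took 96.9% of that of Jak3, 94.6% of Stat3 and 80.1% of Stat5a. For Jak2 treatment took 65.5% and the set 24.4%, for Stat2 47.5% and 33.2%, and for Tyk2 30.7% and 41.1%. With replicate number as a block, 8 of the 9 genes passed, each of them higher, and Stat6 did not. Over all genes 33.0% passed with the block, and 16.6% of all genes did so as higher genes. With each duplicate pair averaged and the set as a block, Stat3 and Jak3 passed (adjusted p = 0.0262 for each), where 5.81% of all genes did.

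The SLIT2 effect was also compared between the sets, and the difference passed for Stat2 and Jak2, in opposite directions. Both calls were lost without limma's mean-variance trend (adjusted p = 0.0504 for Stat2 and 0.069 for Jak2). Stat2 differed by 0.20 in replicates 1 and 2 and by 0.83 in replicates 3 and 4 (limma interaction 0.62, adjusted p = 0.00942). Jak2 differed by 0.79 and 0.36 (interaction -0.42, adjusted p = 0.0167). Over all genes 4.40% passed this test, which rests on the spread within duplicates. For Stat2 the sets differed mainly in vehicle, and after SLIT2 the 4 libraries were at 11.23 to 11.36. The other 7 members did not pass, and Tyk2, with effects of 0.69 and 2.43, had an adjusted p of 0.320.

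Genes that respond to ISGF3, the factor that contains STAT2, showed a difference between the sets as well. Of 24 such genes tested, 0 passed over all libraries by limma, 0 had an unadjusted p under 0.05, and 1 passed with the replicate block. In the test of the difference between the sets, 16 of the 24 passed, all with the higher effect in replicates 3 and 4, and 4 passed without the mean-variance trend. Their median was -0.52 in the set of replicates 1 and 2 and 0.37 in the other set, against medians over all genes of 0.00 and 0.005. In replicates 1 and 2, 22 of the 24 were negative, and the 2 that were positive there, as Stat2 was, were Ifih1 (0.37 in each set) and Parp14 (0.02 and 0.31), named after their values were seen. Irf9, the DNA-binding partner of STAT2, differed by -0.09 and 0.34. Bst2, a membrane protein that tethers budding virus and the gene of the list with the smallest p, differed by -0.17 over all libraries (limma adjusted p = 0.259).

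**Figure D3:**
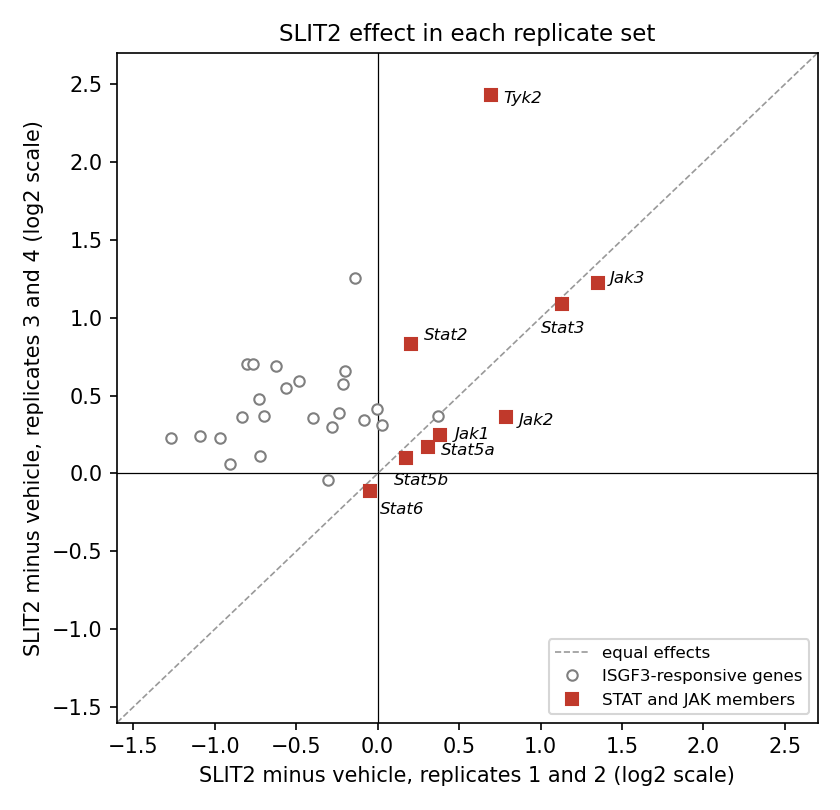
SLIT2 minus vehicle in replicates 3 and 4 (vertical) against replicates 1 and 2 (horizontal), both on the log2 scale, for the 9 members (red squares) and 24 ISGF3-responsive genes (open circles). The dashed line marks equal effects. Stat2 lies at 0.20 and 0.83, above the line, and most ISGF3-responsive genes lie in the upper left.

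Promoter windows were read for all 9 members from RefSeq (GRCm38.p6), from 250 bases before to 50 after each annotated start, in 11 windows. They were searched for the letters TTCNNNGAA, and for TTC followed by GAA with 4 bases of any kind between them, the spacings that STAT dimers bind, each the same on both strands. They were also searched for an interferon-response type element, GAAA followed by GAAA with 2 bases between them, or TTTC followed by TTTC likewise, which is its other strand. Matches of different kinds may overlap. Among 32851 windows of all genes, 8.30%, 6.95% and 3.44% held these letters in that order. Of the members' windows, 1 held any of them, that of Stat2. Stat2 is shown for its matches, and Stat3 and Jak3 as the pair of members with the largest called differences. They are written 5′ to 3′ on the gene's strand, with capitals for the matches and a single capital for the annotated first base. The windows are chr10:128270248-128270547 (plus strand), chr11:100939491-100939790 (minus strand) and chr8:71676133-71676432 (plus strand).
Stat2: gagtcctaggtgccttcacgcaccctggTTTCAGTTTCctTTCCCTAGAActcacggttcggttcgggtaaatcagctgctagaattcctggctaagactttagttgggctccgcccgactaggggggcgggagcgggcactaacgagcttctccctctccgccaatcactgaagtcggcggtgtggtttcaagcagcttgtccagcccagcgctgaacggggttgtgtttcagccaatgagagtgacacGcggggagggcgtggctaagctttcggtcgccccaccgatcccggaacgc
Stat3: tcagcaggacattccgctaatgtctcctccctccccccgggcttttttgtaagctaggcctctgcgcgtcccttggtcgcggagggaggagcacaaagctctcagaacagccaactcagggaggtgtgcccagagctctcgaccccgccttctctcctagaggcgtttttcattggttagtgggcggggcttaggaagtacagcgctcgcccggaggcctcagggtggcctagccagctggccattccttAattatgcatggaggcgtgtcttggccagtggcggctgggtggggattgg
Jak3: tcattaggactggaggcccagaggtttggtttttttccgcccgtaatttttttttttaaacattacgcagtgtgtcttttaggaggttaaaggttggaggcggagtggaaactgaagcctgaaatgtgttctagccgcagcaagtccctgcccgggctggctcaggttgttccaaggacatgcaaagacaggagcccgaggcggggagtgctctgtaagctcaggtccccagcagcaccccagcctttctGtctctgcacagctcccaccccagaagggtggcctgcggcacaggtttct
In Stat2 the interferon-type letters TTTCAGTTTC begin 222 bases before the start and TTCCCTAGAA begins 210 bases before it, without overlap. Of 17 ISGF3-responsive genes tested with a window, 9 (52.9%) held the interferon-type letters on either strand, against 3.99% of all genes with a window. Of 18 STAT3-responsive genes with a window, 4 (22.2%) held TTCNNNGAA, against 9.55% of all genes. Of 10 STAT6-responsive genes with a window, 0 held TTC and GAA with 4 bases between them, against 8.01% of all genes. A match is a run of letters and not evidence of binding, and a missing match refers to these windows alone.

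Levels were compared between members after subtracting log2 of the length in kb of all exons merged. In vehicle the order from high to low was Stat6, Jak1, Stat3, Stat5b, Jak2, Stat2, Stat5a, Jak3 and Tyk2. Stat6 was at 10.82 ± 0.090, Jak1 at 10.12 ± 0.237 and Stat3 at 8.80 ± 0.142, and Tyk2 at 2.55 ± 0.962 (SD, n = 4). The level of Tyk2 is uncertain, since vehicle replicates 3 and 4 were at 3.98 and 2.05. Whether this spread came from the quantification or the cells was not tested. Of the 8 neighbouring pairs in this order, 6 did not overlap between their vehicle libraries. Stat5b, Jak2 and Stat2, at 8.47, 8.31 and 8.21, could not be told apart by their ranges. With SLIT2, Stat6, Jak1 and Stat3 kept the top places, Jak3 moved from place 8 to 7 and Stat5b from 4 to 6.

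**Figure D4:**
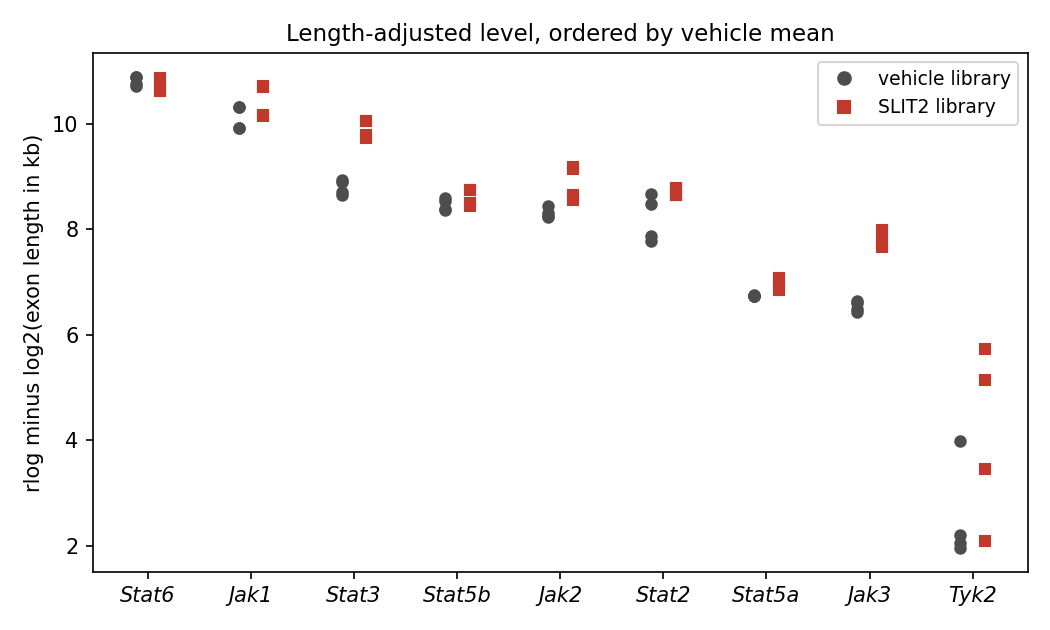
Length-adjusted level of each gene, as rlog minus log2 of merged exon length in kb, with grey circles for vehicle and red squares for SLIT2 libraries, ordered by the vehicle mean. Stat6 and Jak1 are highest in both groups, and Tyk2 is lowest with the widest spread, 1.95 to 3.98 in vehicle and 2.09 to 5.74 in SLIT2.

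The balance between members shifted with SLIT2. Stat6 exceeded Stat3 on this length-adjusted scale by 2.02 in vehicle and by 0.83 in SLIT2, a narrowing by 1.19. In libraries 1 to 4, Stat3 minus Stat6 was -1.96, -1.99, -2.04 and -2.08 in vehicle and -0.82, -0.77, -0.82 and -0.89 in SLIT2. The groups did not overlap, and the replicate sets differed little in this ratio. Jak1 exceeded Jak3 by 3.58 in vehicle and 2.61 in SLIT2, and Jak2 exceeded Jak3 by 1.76 and 1.06. Stat3 minus Jak3 changed little by comparison, from 2.25 to 2.08, also without overlap. Stat5a minus Stat5b was -1.74 and -1.64, with overlapping groups. Of the 36 ratios between members, 20 did not overlap between the groups, and no share over pairs of other genes was computed. Many of them include Stat3 or Jak3, whose own rises enter each such ratio. These ratios are a description with no test.

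Stat3 and Jak3 had a Pearson r of 0.996 over the 8 libraries. Points share the treatment step and the replicate sets, so the values are given as a description. After removal of group means, r between members other than Tyk2 ran from 0.184 to 0.987 over 28 pairs, with a median of 0.899. For the 8 pairs with Tyk2 it ran from -0.831 to -0.366. Outside the family, the tested genes most like Stat3 were Gja1, a connexin gene (r = 0.9985), Bmp2k (0.9985) and Gpr146 (0.9981). Those most like Jak3 were the Fc receptor gene Fcgr4 (r = 0.9989), Myd88, the adaptor of Toll-like receptors (0.998), and Gpr146 (0.9977). Jak2 was most like Ppm1k (0.9947), Lpar1 (0.9927) and Sirpb1b (0.9918), and Stat5a like Gatsl2 (0.9953), Pik3r3 (0.9911) and Kdm6b (0.99).

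Genes around the kinases and STATs were read from the same limma fit, in lists chosen with earlier results of these data known. Of 40 receptor chains that use Janus kinases, 26 were tested, 5 rose and 4 fell, with a median difference of 0.15. The share called was 34.6%, against 13.3% of all genes. With the replicate block 10 rose and 7 fell, where 33.0% of all genes passed. Il4ra, the interleukin-4 receptor alpha chain, was at 10.09 to 10.73 in vehicle and 13.42 to 14.05 in SLIT2. Il21r, the interleukin-21 receptor, was at 9.18 to 10.11 and 11.02 to 11.65, and rose by 1.71 (SE 0.264, adjusted p = 0.00408). Lifr, the receptor of leukemia inhibitory factor, was at 8.76 to 9.66 and 10.60 to 11.20, and rose by 1.66 (SE 0.239, adjusted p = 0.00293). Groups were separate for each of these chains. The other chains that rose were Il13ra1 and Csf3r, and those that fell were Il12rb2, Il7r, Il3ra and Csf2ra, all named after their values were seen. Il12rb2, a chain of the interleukin-12 receptor, fell by 1.00 and Il13ra1, which pairs with Il4ra, rose by 1.00. The common gamma chain gene Il2rg, also named after its value was seen, differed by 0.41 (95% CI -0.25 to 1.07, adjusted p = 0.426, 0.00894 with the block, 0.124 with duplicates averaged).

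Of 31 ligand genes of these receptors, 5 reached the level for testing, 1 rose and 1 fell, and the median difference was -0.12. The share called was 40% of these 5, against 13.3% of all genes. Il10, which encodes the STAT3-activating cytokine interleukin-10, was at 7.08, 7.24, 6.78 and 6.74 in vehicle and at 7.39, 7.70, 7.80 and 7.85 in SLIT2. All SLIT2 libraries were higher, by 0.38 in the set of replicates 1 and 2 and by 1.06 in the other set. The limma adjusted p was 0.0134, and 0.140 with averaged duplicates. Ebi3, a subunit of interleukin-27 and interleukin-35, was at 10.28 to 10.68 in vehicle and 9.71 to 9.95 in SLIT2, and fell by 0.64 (SE 0.106, adjusted p = 0.00582).

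Among 21 inhibitors of the pathway 20 were tested, 2 rose and 0 fell, with a median difference of 0.10. The share called, 10.0%, was below the 13.3% of all genes. With the replicate block 6 rose and 4 fell, where 33.0% of all genes passed, and with quantile normalization 4 passed. Socs3, the feedback inhibitor of gp130-type receptors, was at 7.73 to 7.94 in vehicle and 12.19 to 12.50 in SLIT2. Ptpn1, the phosphatase PTP1B that acts on JAK2 and TYK2, was at 12.54 to 12.69 and 13.20 to 13.36, and rose by 0.66 (SE 0.0567, adjusted p = 0.000258). Both genes had separate groups.

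In the list of STAT3-responsive genes 15 of 22 rose and 4 fell (86.4% called, against 13.3% of all genes), with a median difference of 0.73. Several of its members were known from these data to have risen, so the count is not independent evidence of a direction. Socs3, Saa3 and Il4ra had the largest differences of this list. Saa3, an acute-phase gene, was at 8.06 to 9.71 in vehicle and 11.50 to 13.97 in SLIT2. Among 13 STAT6-responsive genes 2 rose and 2 fell (30.8% called, against 13.3% of all genes), with a median difference of 0.06. Mrc1, the mannose receptor, and Klf4, a zinc finger factor, were at 14.63 to 15.20 and 7.89 to 8.38 in vehicle and at 15.99 to 16.26 and 8.70 to 9.33 in SLIT2, and rose by 1.18 and 0.87. Egr2, an early-response factor, was at 10.01 to 10.32 in vehicle and 8.82 to 9.37 in SLIT2, and fell by 1.05. Among 14 STAT5-responsive genes 2 rose and 3 fell (35.7% called, against 13.3% of all genes), with a median difference of 0.07. In that list Dusp4, a MAP kinase phosphatase, and the cyclin D1 gene Ccnd1 fell by 1.26 and 1.24. Pim1, a kinase, rose by 0.76 (SE 0.0845, limma adjusted p = 0.00088, and 0.070 with averaged duplicates). Of the called genes on the STAT5 list, Pim1, Ccnd1, Bcl6 and Bcl2l1 are also on the STAT3 list, and Dusp4 is not. The counts of these lists are therefore not separate results. Il4ra, Il12rb2, Il3ra, Ebi3, Ccnd1 and Pim1 share exonic bases with genes on the other strand, and Il2rg and Irf9 with a gene on their own, so part of their reads cannot be assigned.

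**Figure D5:**
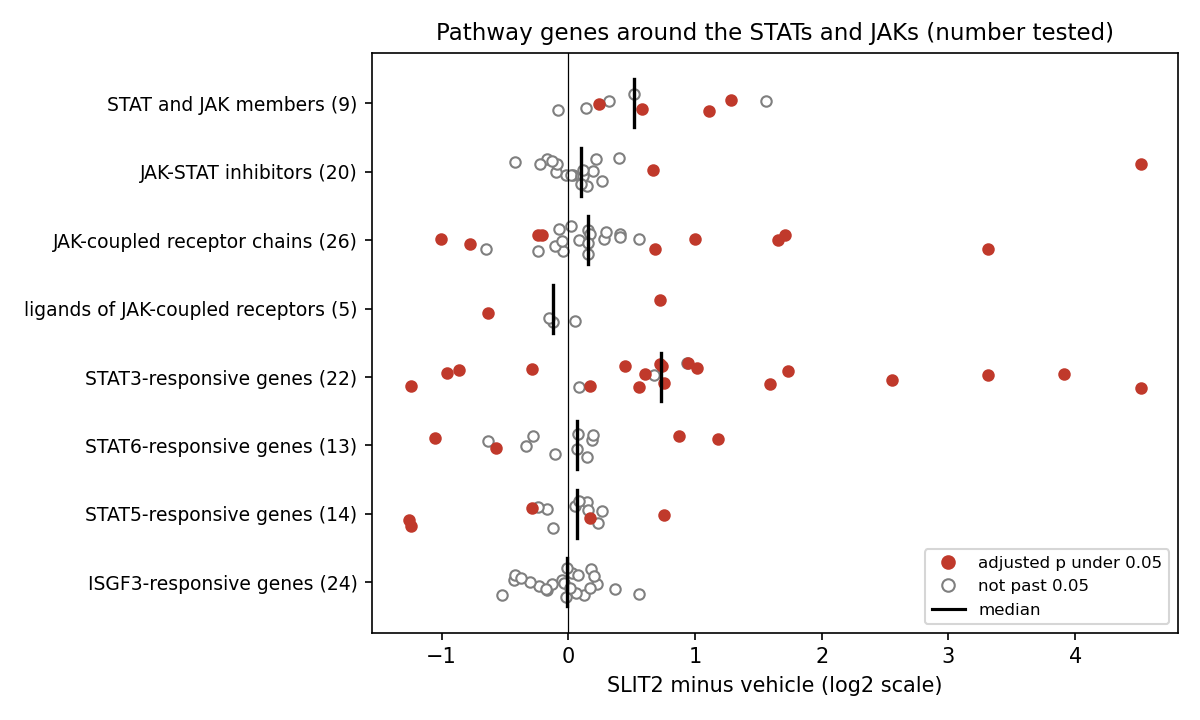
SLIT2 minus vehicle on the log2 scale for every tested member and listed gene, one point per gene, red where the adjusted p was under 0.05, with a black bar at each list's median. The number tested stands in brackets. The medians are 0.73 for the STAT3-responsive list, 0.10 for inhibitors and -0.01 for ISGF3-responsive genes, whose points are all open.

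Markers of other cell types were read from the same table. Of 10 neutrophil markers 3 were tested, and their summed level was 11.28 to 11.48 in vehicle and 11.88 to 12.24 in SLIT2. Csf3r, itself a receptor that uses Janus kinases, was at 11.19 to 11.43 and 11.83 to 12.21 and was the 1 neutrophil marker that passed the test. The other tested markers, S100a8 and Cxcr2, differed by -0.15 and -0.23, and the median of the 3 was -0.16. Ly6g, Mpo, Elane and Camp had means at or below 0. Of 6 erythroid and megakaryocyte markers 2 were tested and 0 passed, with Hbb-bs, Hba-a1 and Gp9 at or below 0. Their sums were 9.06 to 10.53 in vehicle and 9.96 to 12.31 in SLIT2, nearly all from Pf4 (8.98 to 10.50 and 9.91 to 12.28). Pf4 differed by 1.36 and Ppbp by 1.15 (limma adjusted p = 0.212 and 0.0908). With the replicate block the adjusted p-values were 0.000715 and 0.0134, and with averaged duplicates 0.0512 and 0.133. Mast cell and basophil markers (1 of 7 tested, 0 past the test, with Cpa3, Mcpt4, Fcer1a, Ms4a2 and Mcpt8 at or below 0) summed to 5.28 to 5.73 in vehicle and 4.89 to 5.25 in SLIT2. Stromal and endothelial markers (6 of 9 tested, 1 past the test, 0 at or below 0) summed to 10.34 to 10.61 and 10.52 to 10.85. The stromal marker past the test, the collagen gene Col3a1, rose by 0.665 (limma adjusted p = 0.0422) with separate groups. Kdr also had separate groups but did not pass (difference 0.393, limma adjusted p = 0.0825). Of 8 dendritic cell markers 1 was tested, with sums of 5.34 to 5.69 and 5.29 to 5.75, and of 9 lymphocyte markers 0 were, with 3.77 to 3.90 and 3.77 to 3.86. The part of these cells in the differences of the STAT and JAK genes was not tested.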

How the data were processed

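RNA-seq libraries of 300 ng total RNA were sequenced as paired-end reads of 101 bp, per the labels' protocols. STAR, Salmon, DESeq2, Picard 2.23.8, SAMtools 1.7 and FastQC 0.11.9, with mm10 and GRCm38, are named per the submitters' processing notes, without roles or settings. The authors deposited rlog values on a log2 scale with 2 decimals, which shrink low genes towards their mean, so differences of low genes are understated.

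Tests used R 4.3.3 and limma 3.58.1 on genes with a mean of at least 4 (lmFit, eBayes with trend, treatment only, two-sided, Benjamini-Hochberg over 11851 genes, threshold 0.05). The steps were tested on simulated data. Members and lists were chosen with earlier results of these data known. From each pathway list the text names the 3 called genes with the largest difference and separate groups, or the gene with the smallest p. For each called member it names the 3 most correlated genes outside the family, leaving out clone and model names. Alternatives were a replicate block, a set block, averaged duplicates, other filters, scalings, priors and weights, each set alone, and leaving out each library. The main test did not use the replicate number, a label without stated meaning, which entered as a block in an alternative alone. After removal of group means the vehicle and SLIT2 libraries of a number correlated across genes (0.637, 0.671, 0.753 and 0.587). Each of these values was over 0.1, the rule set for pairing. Correlations with the other number of the same set were close to these (0.609, 0.722, 0.679 and 0.601), and the own number was the best match for replicates 1 and 3 alone, so these values do not separate pairing by number from the set. Coordinates and lengths came from GENCODE M21 (GRCm38), figures from matplotlib 3.10.9. Protein sequences were not used here, and 1 listed marker gene is not reported here.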

Additional observations from a re-analysis of the deposited data

Results flagged for a closer look

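The SLIT2 effect on Stat2 was 0.62 higher on the log2 scale in replicates 3 and 4 than in replicates 1 and 2 (limma interaction, adjusted p = 0.00942). For Jak2 the same interaction was -0.42 (adjusted p = 0.0167). Among the named pathway genes it was 0.34 for Il21r (adjusted p = 0.0310), 0.30 for Mrc1 (0.0365) and -0.41 for Pim1 (0.0170). Of the ISGF3-responsive genes, 16 of 24 passed this test. Without limma's mean-variance trend none of these 5 genes passed (adjusted p of 0.0504, 0.069, 0.089, 0.115 and 0.0709 in this order), and 4 of the 24 did. These p-values rest on the spread within duplicates, and if each set is a single source they say nothing about the spread between sources.

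Single libraries stood apart from their group in 2 of 48 gene and group combinations examined, and chance alone gives about 1 in 20. Vehicle replicate 3 had Tyk2 at 6.76, where the other vehicle libraries were at 4.73 to 4.98. Vehicle replicate 2 had Stat5a at 9.58 where the other vehicle libraries were at 9.56, a step of 0.02 on values given to 2 decimals.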

How the results depend on the processing

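The 2 calls for Stat3 and Jak3 held in all 21 alternatives, with differences of 1.06 to 1.17 and 1.22 to 1.35; no other member held in all of them. Of 504 values for single genes under an alternative, 465 kept their direction and side of the threshold. The call was gained in 18 and lost in 21, and 0 were reversed. These values pool the members with 15 named pathway genes, most of them picked for a call, a large difference and separate groups. The pooled count is therefore no measure of how stable the members were. Stat5a was called in 11 of the 21 alternatives and Jak2 in 13. Stat2 and Jak1, not called in the main test, were each called in 4, Stat5b and Tyk2 in 3 and Stat6 in 2. Depth is unknown, so counting error cannot be set beside any value.

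With the replicate block, the genes past the threshold went from 4 to 8 for the members, from 1581 to 3912 for all genes, from 2 to 10 for inhibitors, from 9 to 17 for receptor chains and from 0 to 1 for ISGF3-responsive genes. With the replicate set as a block they were 9 (8 higher and 1 lower, Stat6), 4652, 11, 20 and 2, and 7 for STAT6-responsive genes (4 otherwise). With averaged duplicates they were 2 for the members, 688 for all genes, 1 for ligands (2 otherwise), 2 for STAT5-responsive genes (5 otherwise) and 1 for ISGF3-responsive genes. In replicates 1 and 2 alone they were 3962 for all genes, 8 for inhibitors, 20 for receptor chains, 1 for ligands, 8 for STAT6-responsive, 8 for STAT5-responsive and 15 for ISGF3-responsive genes (1 higher and 14 lower). In replicates 3 and 4 alone they were 7 for the members (6 higher and 1 lower, Stat6), 2880 for all genes, 5 for inhibitors and 13 for ISGF3-responsive genes (all 13 higher). Without a filter 2 members passed, where more genes were tested, and with quantile normalization 4 inhibitors did. Leaving out 1 library gave 2 to 4 members, with 2 without vehicle replicate 2, 3 or 4 or SLIT2 replicate 1 or 2. For all genes it gave 1021 to 1254, with 1021 without SLIT2 replicate 2. The interaction between treatment and set, whose alternatives were chosen after seeing the data, was called for 2 members and for 0 without a mean-variance trend. By the length of the longest transcript, 6 of 9 members kept their place in the order of levels, and Stat2, Stat5b and Jak2 changed places. Where not stated, the cause was not tested.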

Other observations

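Several receptor chains that signal through the members showed small differences over all libraries, and they are named here after their values were seen. The gp130 gene Il6st differed by -0.08 (95% CI -0.36 to 0.20), the interleukin-10 receptor gene Il10ra by -0.04 (-0.36 to 0.27) and the type I interferon receptor gene Ifnar1 by 0.08 (-0.29 to 0.45). None of these passed the limma test, at adjusted p-values of 0.764, 0.897 and 0.818. Il6ra, the ligand-binding chain of the interleukin-6 receptor, differed by -0.20 in replicates 1 and 2 and by -1.09 in replicates 3 and 4. Over all libraries Il6ra had a 95% CI of -1.66 to 0.37 (adjusted p = 0.416; 0.0409 with the replicate block and 0.216 with averaged duplicates).

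The phosphatase gene Ptprc, which encodes CD45, a phosphatase that also acts on Janus kinases, differed by 0.40 (95% CI 0.12 to 0.69, limma adjusted p = 0.0742; 5.38e-04 with the replicate block and 0.0591 with averaged duplicates). Ptpn2, which encodes the phosphatase TC-PTP, differed by 0.22 (95% CI 0.08 to 0.35, adjusted p = 0.051; 0.0117 with the block, 0.1098 with duplicates averaged). SLIT2 and vehicle libraries did not overlap for these 2 genes, as for 20.5% of all genes tested.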
